A study of Mus musculus with 9 samples.

Results

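The nuclear-encoded respiratory chain genes of the mouse kidney were examined in kidneys of C59A, C59S and wild-type (WT) mice. They were taken as the protein-coding genes outside the mitochondrial genome whose symbols mark subunits or assembly factors of the 5 complexes (Nduf with a, b, c, s or v, Sdha to Sdhd, Uqcr, Cox4 to Cox8 and Atp5). This gave 93 of the 52636 genes in the table, of which 44 belonged to complex I, 4 to complex II, 8 to complex III, 20 to complex IV and 17 to complex V. Ndufa4 and Ndufa4l2 were counted with complex IV, where their proteins are known to act, and Atp5s and Atp5sl were counted with complex V by name only. The series measured RNA by sequencing in 3 kidney libraries of each group. C59A and C59S are knock-in alleles of Nfkb1, the gene of the NF-κB subunit p50, in which 1 cysteine codon was replaced, and both were built with a PGK-neo selection cassette in a nearby intron. Both lines came from C57BL/6 embryonic stem cells, and WT kidneys carried neither allele. The labels call C59A activated and C59S inactivated, whereas the design text lists the effects on DNA binding in the other order and names alanine for both codons, so the groups are named here by allele and no direction of NF-κB activity is used. The labels give no age, sex or litter and do not say that the replicates came from separate animals, so p-values measure the spread between these libraries, which may be technical.

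The respiratory chain sits in the inner mitochondrial membrane. Complexes I and II pass electrons from NADH and succinate to coenzyme Q, complex III passes them to cytochrome c and complex IV to oxygen, and complex V uses the proton gradient to make ATP. Most subunits are made from nuclear genes and imported, and they are assembled with a small set encoded by mitochondrial DNA with the help of assembly factors that are not part of the finished complex. Kidney tubules, the proximal tubule and the thick ascending limb above all, depend on this pathway for the energy of ion transport.

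Promoters are shown for Ndufaf4, the member that passed the test in a comparison, for Cox6a1, the member of highest level, and for Cox8a and Cox8b, a widely expressed isoform and its muscle and brown fat counterpart, which had the widest range of any member. The windows run from 250 bases before to 50 bases after the gene start in RefSeq, build GRCm38.p6, and are written 5′ to 3′ on the gene's strand. They lie at chr4:24897833-24898132 on the plus strand for Ndufaf4, at chr5:115348909-115349208 on the minus strand for Cox6a1, at chr19:7217567-7217866 on the minus strand for Cox8a and at chr7:140900397-140900696 on the minus strand for Cox8b. Capitals mark matches, on either strand, to GCATGCGC, a motif of the mitochondrial biogenesis factor NRF1, and to CCGGAAG, a motif of ETS factors such as GABPA. Matches to AAGGTCA (ERR) and AAGATGGC (YY1) were searched too, and these 4 windows held none.
Ndufaf4: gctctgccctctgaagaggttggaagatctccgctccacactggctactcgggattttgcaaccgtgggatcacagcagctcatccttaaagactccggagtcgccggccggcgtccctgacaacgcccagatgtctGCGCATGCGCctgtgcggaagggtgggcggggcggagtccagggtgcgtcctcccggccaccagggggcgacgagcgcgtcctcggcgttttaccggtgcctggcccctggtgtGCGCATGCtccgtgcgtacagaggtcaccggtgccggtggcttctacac
Cox6a1: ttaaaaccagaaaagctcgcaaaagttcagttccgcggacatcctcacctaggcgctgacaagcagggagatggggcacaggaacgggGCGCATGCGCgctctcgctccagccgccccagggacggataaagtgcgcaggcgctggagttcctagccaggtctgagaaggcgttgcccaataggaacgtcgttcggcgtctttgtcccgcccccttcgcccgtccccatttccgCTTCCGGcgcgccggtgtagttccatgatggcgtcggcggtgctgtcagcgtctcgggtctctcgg
Cox8a: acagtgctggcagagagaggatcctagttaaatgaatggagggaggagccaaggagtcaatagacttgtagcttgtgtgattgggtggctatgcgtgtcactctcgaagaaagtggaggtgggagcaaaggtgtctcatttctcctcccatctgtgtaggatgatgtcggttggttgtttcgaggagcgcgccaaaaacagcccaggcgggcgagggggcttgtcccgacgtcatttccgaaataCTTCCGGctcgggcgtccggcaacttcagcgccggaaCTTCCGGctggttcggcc
Cox8b: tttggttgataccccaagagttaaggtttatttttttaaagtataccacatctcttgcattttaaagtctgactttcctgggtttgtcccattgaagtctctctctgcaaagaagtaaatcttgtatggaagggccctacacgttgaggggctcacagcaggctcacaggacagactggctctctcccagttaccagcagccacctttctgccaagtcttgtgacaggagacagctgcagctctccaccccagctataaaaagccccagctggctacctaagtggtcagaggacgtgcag

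The Ndufaf4 window held 3 NRF1 matches, of which those starting at -113 and -111 from the gene start overlap on opposite strands, and the third starts at 2. The Cox6a1 window held an overlapping pair of NRF1 matches and 1 ETS match, the Cox8a window 2 ETS matches, and the Cox8b window none of the 4 motifs. Of the 93 members, 74 had a promoter window in the table. An NRF1 match was present in 12 of the 74 (16.2%), against 4.11% of 16341 protein-coding genes and 3.05% of all 27025 genes with a window of this length. An ETS match was present in 18 of the 74 (24.3%), against 13.3% of protein-coding genes and 9.93% of all genes. A YY1 match was present in 10 of the 74 (13.5%), against 3.64% of protein-coding genes and 3.19% of all genes. Of these 10, 8 were complex I genes, which made up 39 of the 74 windows. An ERR match was present in 8 of the 74 (10.8%), against 4.64% of protein-coding genes and 5.38% of all genes. These matches describe the letters in the windows and are not measured binding sites.

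Library depth was about 16367400 to 25787700 counts, and between 16.4% and 40.6% of the counts fell on the mitochondrial genome, the highest share being in C59S replicate 3. The members took 1.91% to 3.00% of all counts. Nfkb1 itself had 29.2 to 39.7 CPM, the gene's share of a library's counts after TMM scaling, in all 9 libraries, and a change of codon is not checked by a level. The 4 Y-linked genes Ddx3y, Eif2s3y, Kdm5d and Uty summed to 167 to 174 CPM in the C59A libraries, and to at most 2.56 CPM in C59S and WT libraries. Xist was at most 0.72 CPM in C59A libraries and at least 815 CPM in C59S and WT libraries. Male kidneys thus make up C59A and female kidneys make up the other groups by these genes, so allele and sex cannot be told apart in either comparison with C59A. The 6 proximal tubule markers, which mark the labelled tissue, summed to 5115 to 7638 CPM in C59A, 4787 to 6587 CPM in C59S and 8863 to 9568 CPM in WT libraries, with each C59A and C59S sum below each WT sum. In C59A against WT the markers did not all go one way: 5 of 6 lay below 0, of which Slc5a2 was called lower (-1.44), while Slc22a6 was called higher (0.91). In C59S against WT all 6 lay below 0, with a median log2 fold change of -0.60 and 0 called by edgeR. At an unadjusted p under 0.05 there were 3 of the 6, beside 18.1% of all genes. Their part in the values below was not tested.

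Levels were compared between genes as FPKM, which divides by gene length. The complex IV subunit Cox6a1 was the highest member, at 2068 ± 298 FPKM in C59A, 1854 ± 230 in C59S and 1906 ± 224 in WT kidneys (SD, n = 3 each). Cox8a followed at 1466 ± 125 FPKM in C59A, 1327 ± 47.1 in C59S and 1236 ± 152 in WT kidneys (SD, n = 3 each). The leading members of the other complexes lay lower, with means over all libraries of 599 FPKM for Uqcr11 (complex III), 553 for Ndufa1 (complex I), 312 for Atp5a1 (complex V) and 154 for Sdhb (complex II). The order at the top was not the same in every group: Uqcr10 was above Uqcr11 in C59A and WT and below it in C59S kidneys, and Atp5e was above Atp5a1 in C59S and below it in C59A and WT kidneys. The lowest member of complex I in FPKM was Ndufb2, an accessory subunit, at 5.34 FPKM over all libraries. That rank depends on its annotated length of 5628 bases. In CPM, without division by length, Ndufb2 averaged 30.4, and the lowest member of complex I was the assembly factor Ndufaf5, at 11.8.

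Roles differed in their median level, with ranges that overlapped. The median over the 8 Ndufaf assembly factors of complex I was 16.1 FPKM in C59A, 12.4 in C59S and 12.8 in WT kidneys. The 29 accessory subunits of complex I had a median of 164 FPKM in C59A, 153 in C59S and 152 in WT kidneys, and the 7 core subunits, which form the catalytic arm, 119 in C59A, 129 in C59S and 109 in WT kidneys. The 5 F1 subunits of complex V, which form the catalytic head, had a median of 280 FPKM in C59A, 263 in C59S and 258 in WT kidneys. Among the genes of the c-ring protein, Atp5g1 made up 42.9% to 47.1% of Atp5g1 plus Atp5g2 and 21.6% to 29.1% of Atp5g1 plus Atp5g3 over the 9 libraries, in FPKM. These shares depend on the annotated lengths, 4912 bases for Atp5g1, 1675 for Atp5g2 and 2181 for Atp5g3. In CPM, without division by length, the means over all libraries were 339 for Atp5g1, 141 for Atp5g2 and 482 for Atp5g3. The order of Atp5g1 and Atp5g2 thus turns with the measure.

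**Figure D1:**
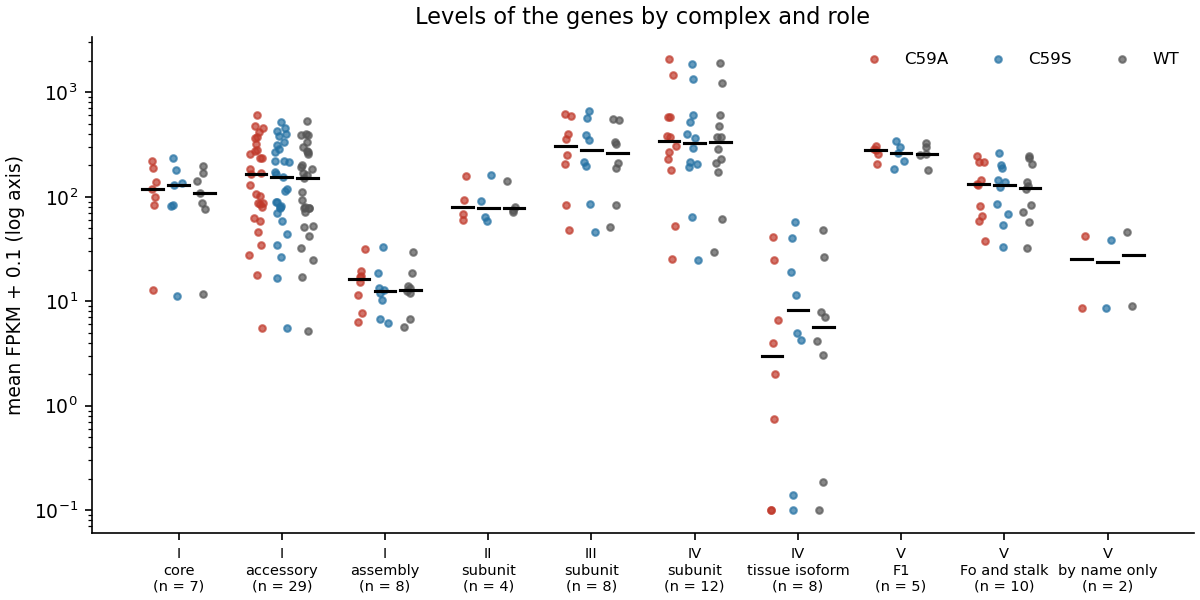
Mean FPKM of each member in C59A, C59S and WT kidneys on a log axis after adding 0.1, by complex and role. Points are genes and black bars are medians over genes. The medians of complex I assembly factors (16.1 in C59A, 12.4 in C59S and 12.8 in WT) and of complex IV tissue isoforms lie below those of the subunits in all 3 groups, while single genes overlap.

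Across the 3 comparisons the median log2 fold change of the members was at most 0.10, and 1 member passed the test. Of the 93 members, 91 passed the filter on low counts and were tested among 17114 genes with edgeR's quasi-likelihood test, with p-values adjusted by Benjamini-Hochberg over all genes and a threshold of 0.05. Cox7b2 and Cox8c, isoforms known from testis, were not tested: Cox7b2 had 1 read in C59S replicate 3 and 3 reads in WT replicate 3, and Cox8c had none. In bulk RNA, fewer cells of a type and less RNA per cell cannot be told apart.

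In C59A against WT kidneys, 1 member, Ndufaf4, was called higher and 0 lower, where 3.24% of all tested genes were called higher and 2.46% lower. The median log2 fold change was 0.10 over the members and -0.02 over all tested genes, and 67 of 91 members lay above 0. Libraries of the 2 groups did not overlap for 6 members that were higher and 2, Cox6a2 and Cox8b, that were lower in C59A, where 12.6% of all genes were separated with C59A higher and 12% with C59A lower. At an unadjusted p under 0.05 there were 7 of 91 members and 21% of all genes. In C59S against WT kidneys, edgeR called 0 members in either direction, and it called 0% of all tested genes. At an unadjusted p under 0.05 there were 3 of 91 members and 18.1% of all genes. DESeq2, voom and limma also called 0 members, and the shares of all genes they called are not given here. The median was 0.05 over the members and 0.01 over all genes, 61 of 91 members lay above 0, and 6 members were separated with C59S higher and 0 with C59S lower, where 11.2% of all genes were separated with C59S higher and 11.3% lower. In C59A against C59S kidneys, Ndufaf4 again was the 1 member called higher and 0 were called lower, where 3.35% of all genes were called higher and 2.56% lower. The median was 0.05 over the members and -0.01 over all genes, and 7 members were separated with C59A higher and 6 with C59A lower, where 14.7% of all genes were separated with C59A higher and 14.5% lower. At an unadjusted p under 0.05 there were 6 of 91 members and 22.9% of all genes. The comparisons share libraries, so they do not count as separate evidence.

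A member that missed the threshold is not shown to be equal between groups. The 95% interval of the log2 fold change lay within 1 of 0 for 87 members in C59A against WT, 85 in C59S against WT and 87 in C59A against C59S. It lay within 0.5 of 0 for 48, 57 and 56 members in the same order of comparisons.

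**Figure D2:**
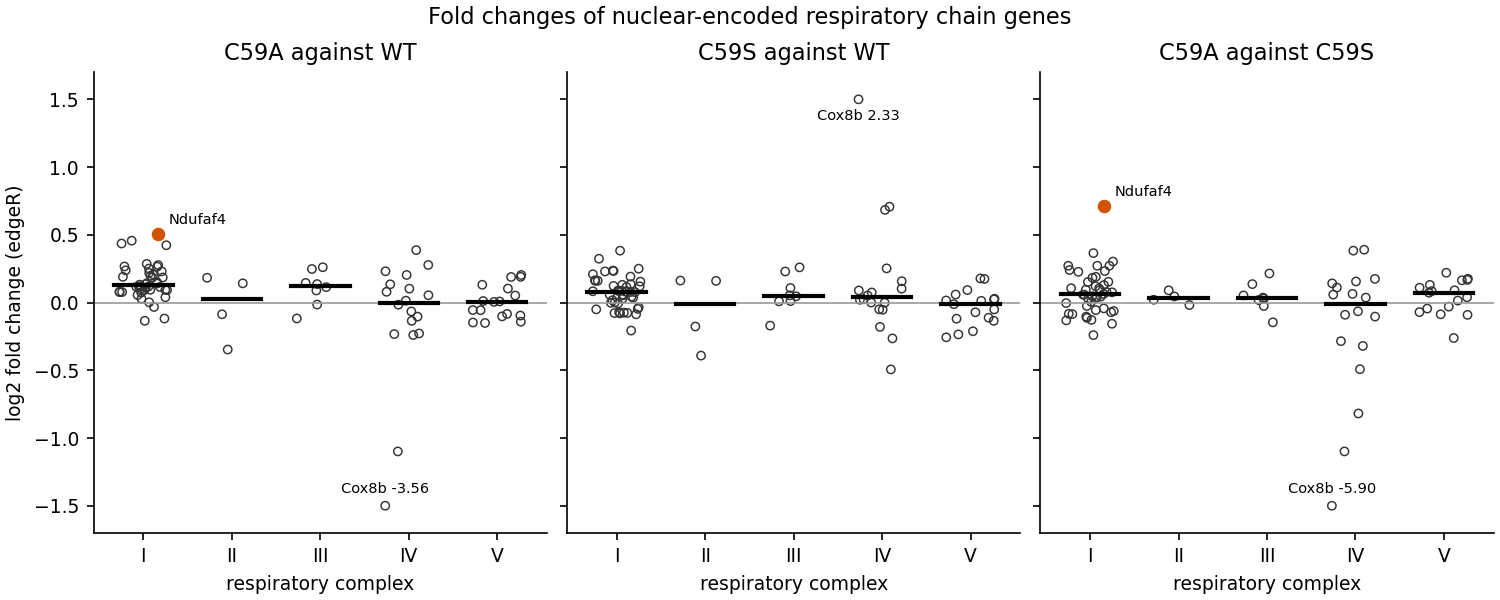
Log2 fold change of the 91 tested members by complex in the 3 comparisons, from edgeR. Points are genes, black bars are medians, filled points passed the test, and Cox8b lies beyond the axis and is drawn at its edge with its value (-3.56, 2.33 and -5.90). Ndufaf4 is the filled point, and the complex medians lie near 0.

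Fewer members lay above 0 when 1 WT library, the lowest one, was left out. The median deviation of the members from the 9-library mean, on the log2 CPM scale, was -0.06, 0.04 and 0.16 in C59A replicates 1 to 3, -0.05, 0.08 and -0.02 in C59S replicates, and -0.27, -0.06 and 0.15 in WT replicates. WT replicate 1 was the lowest library in all 5 complexes. Without it, 47 of 91 members lay above 0 in C59A against WT, with a median of 0.01, and 35 of 91 in C59S against WT, with a median of -0.07. Leaving out the lowest library moves such values down by construction. The counts above 0 without another WT library are not given here. The same library was the lowest in mitochondrial ribosomal protein genes, at -0.24, and it shared the lowest value of cytosolic ribosomal protein genes, -0.24, with WT replicate 2. With library totals in place of TMM factors, 13 of 91 members lay above 0 in either comparison with WT, while the median of all genes moved to -0.26 in C59A against WT and -0.19 in C59S against WT.

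The 13 subunits encoded by mitochondrial DNA varied more than their nuclear partners. Their median deviation was -0.12, 0.54 and 0.37 in C59A, 0.02, -0.29 and 1.09 in C59S, and -0.47, -0.51 and -0.74 in WT libraries. Their summed CPM divided by that of the members was 8.78, 12.4 and 10.2 in C59A, 10.4, 7.39 and 20.9 in C59S, and 8.52, 7.20 and 5.35 in WT libraries. All 13 lay above 0 in both comparisons with WT, with medians of 0.84 in C59A and 0.98 in C59S, but 1 passed the test in C59A against WT and 0 in C59S against WT. At an unadjusted p under 0.05 there were 3 of 13 in C59A against WT, beside 21% of all genes, and 7 of 13 in C59S against WT, beside 18.1% of all genes. Without C59S replicate 3 the median in C59S against WT was 0.33. The gene called was mt-Nd3, a membrane arm subunit of complex I, at 342, 456 and 200 CPM in C59A and 144, 108 and 114 CPM in WT kidneys, with a log2 fold change of 1.45 ± 0.34 (SE) and an adjusted p of 0.0405 in edgeR. The call held in 10 of 23 alternative settings.

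**Figure D3:**
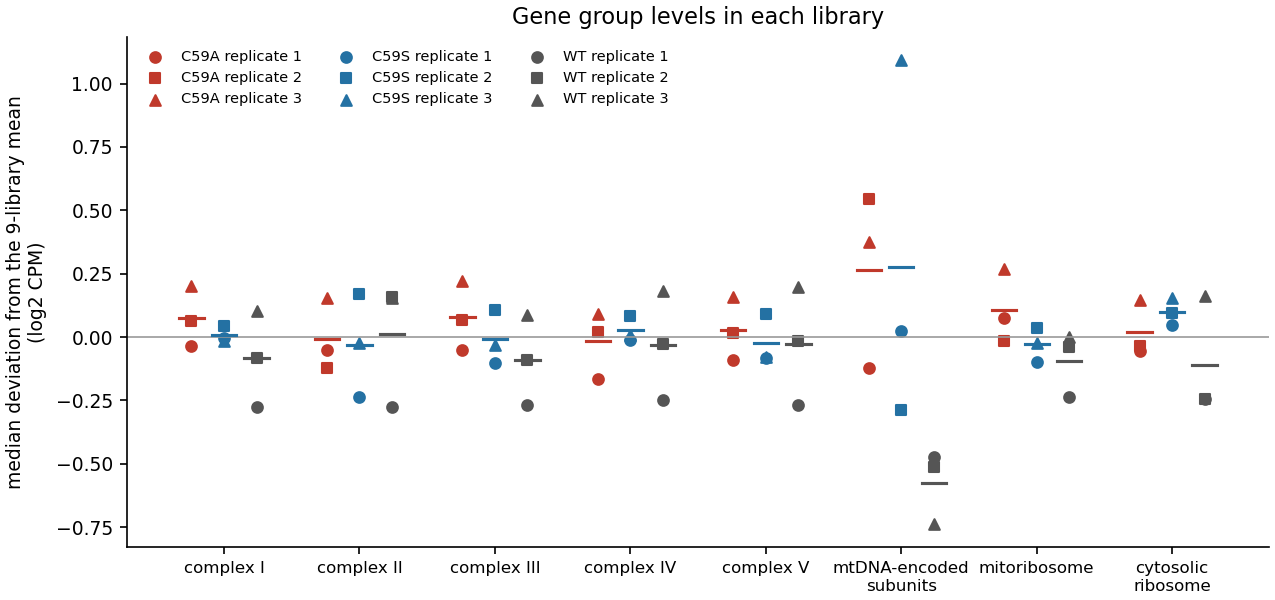
Median deviation of each gene group from its 9-library mean (log2 CPM) in every library, with C59A, C59S and WT from left to right. Symbols are replicates and bars are group means. WT replicate 1 is lowest in the 5 complexes, at -0.27 over the members, and the mitochondrial DNA-encoded subunits spread from -0.74 to 1.09.

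Complex I held the called member. Ndufaf4 (ENSMUSG00000028261, chromosome 4, 24898083 to 24905001, GRCm38, plus strand) encodes an assembly factor that helps build complex I. It had 66.0, 62.8 and 70.4 CPM in C59A, 46.0, 36.4 and 39.2 CPM in C59S, and 51.8, 44.8 and 43.8 CPM in WT kidneys. All C59A libraries lay above all others, while C59S and WT overlapped. The log2 fold change was 0.71 ± 0.12 (SE, n = 3 each) in C59A against C59S, with an adjusted p of 0.00781 in edgeR, and this call held in all 24 alternative settings. In C59A against WT it was 0.50 ± 0.12, with an adjusted p of 0.0347. That call was lost without any one of the C59A libraries (adjusted p 0.0503 to 0.118), without WT replicate 2 or 3 (0.0957 and 0.0889) and without C59S replicate 3 (0.0523), and with library totals it was 0.27 with an adjusted p of 0.379. It held in 14 of 24 alternatives. In C59S against WT it was -0.21 ± 0.12, with an adjusted p of 0.398.

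The other Ndufaf genes were not called. Ndufaf2, a late assembly factor, had 21.4, 23.2 and 23.5 CPM in C59A and 13.4, 18.7 and 18.7 CPM in WT kidneys, a log2 fold change of 0.42 ± 0.14 with an adjusted p of 0.113. Ndufaf6 had 19.3, 22.2 and 22.8 CPM in C59A and 17.4, 17.9 and 17.5 CPM in WT kidneys, 0.29 ± 0.13 with an adjusted p of 0.219. Both sets of libraries were separated, and so were those of the accessory subunits Ndufb4, Ndufv3 and Ndufa8, which were named after their values were seen. Of the exon bases of Ndufaf2, 65.6% are shared with a noncoding gene on the opposite strand, and the strand setting is not given in the sources used here, so their reads cannot be told apart. Ndufv3, a subunit of the flavoprotein part, had 234, 278 and 292 CPM in C59A and 183, 195 and 217 CPM in WT kidneys (0.44 ± 0.14, adjusted p 0.0884). Ndufb4, a membrane arm subunit, had 257, 304 and 345 CPM in C59A and 204, 209 and 247 CPM in WT kidneys (0.46 ± 0.15, adjusted p 0.104). DESeq2 called both, and edgeR did not. The share of all genes that DESeq2 called is not given here.

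All 29 accessory subunits of complex I lay above 0 in C59A against WT, with a median of 0.14 and 0 called by edgeR, and 2 of them were at an unadjusted p under 0.05, where 21% of all genes were. With upper quartile factors 28 of 29 lay above 0, and with library totals 6 of 29. Without WT replicate 1, the lowest library, it was 19 of 29, a move down that comes by construction. Ndufa12, the subunit that replaces Ndufaf2 during assembly, was the most variable member of complex I within groups. It had 74.6, 87.3 and 177 CPM in C59A, 127, 124 and 79.1 CPM in C59S, and 55.9, 128 and 134 CPM in WT kidneys, and the groups overlapped.

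None of the 7 core subunits of complex I was separated in C59A against WT, where 24.6% of all genes were in either direction. Ndufs1, which carries iron-sulphur centres, had 94.9, 105 and 108 CPM in C59A, 96.0, 84.8 and 90.4 CPM in C59S, and 87.0, 103 and 95.3 CPM in WT kidneys, and its log2 fold changes were 0.11 ± 0.12 in C59A against WT and -0.07 ± 0.12 in C59S against WT (adjusted p 0.642 and 0.779). Ndufv1, the NADH-binding flavoprotein, had 248, 242 and 275 CPM in C59A, 197, 228 and 209 CPM in C59S, and 195, 230 and 243 CPM in WT kidneys. Its C59A libraries lay above all C59S libraries, with 0.27 ± 0.13 in C59A against C59S and an adjusted p of 0.259. Ndufv2, its flavoprotein partner, lay the other way, with 218, 247 and 251.5 CPM in C59A, 252, 254 and 269 CPM in C59S, and 184, 226 and 249 CPM in WT kidneys. Its C59S libraries lay above all others, with -0.11 ± 0.14 in C59A against C59S (adjusted p 0.688) and 0.23 ± 0.14 in C59S against WT (adjusted p 0.406). Ndufs8, an iron-sulphur subunit, had 222, 214 and 253 CPM in C59S and 188, 199 and 199 CPM in WT kidneys, which did not overlap (0.24 ± 0.13, adjusted p 0.380). In C59S against WT 2 of the 7 core subunits were separated, beside 22.5% of all genes in either direction. In C59S against WT the highest value of complex I was that of Ndufb7, a membrane arm subunit, with 305, 297 and 352 CPM in C59S and 237, 215 and 278 CPM in WT kidneys. Those libraries did not overlap, and the log2 fold change was 0.38 ± 0.16 with an adjusted p of 0.237.

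Of 57 tested partner genes outside the members (assembly factors, cytochrome c and coenzyme Q synthesis), 2 (3.51%) were called higher in C59A against WT, near the 3.24% of all genes. In C59A against C59S 3 (5.26%) were called higher, where 3.35% of all genes were. None was called lower, and 0 were called in C59S against WT by edgeR, with 5 at an unadjusted p under 0.05. Cycs, which encodes cytochrome c, had 323, 340 and 431 CPM in C59A, 182, 229 and 222 CPM in C59S, and 170, 255 and 229 CPM in WT kidneys. All C59A libraries lay above the rest. The log2 fold change was 0.74 ± 0.18 against WT (adjusted p 0.0347) and 0.79 ± 0.18 against C59S (adjusted p 0.0288) in edgeR. Sdhaf1, an assembly factor of complex II, had 16.04, 21.3 and 23.4 CPM in C59A and 9.80, 11.8 and 13.9 CPM in WT kidneys (0.78 ± 0.17, adjusted p 0.0224). Coq3, a methyltransferase of coenzyme Q synthesis, had 24.3, 26.9 and 22.6 CPM in C59A and 17.0, 16.2 and 13.3 CPM in C59S kidneys (0.66 ± 0.13, adjusted p 0.0156). Lrpprc, which stabilizes mitochondrial mRNAs, had 89.8, 85.5 and 101 CPM in C59A and 62.0, 65.6 and 70.6 CPM in C59S kidneys (0.48 ± 0.12, adjusted p 0.0415). These calls held in part of the 24 alternatives each: Cycs in 11 against WT and 14 against C59S, Sdhaf1 in 17, Coq3 in 20 and Lrpprc in 12. By list, the calls in C59A against WT were 1 of 4 assembly factors of complex II and 1 of 15 genes of cytochrome c and coenzyme Q synthesis, and in C59A against C59S 1 of 19 tested assembly factors of complex IV and 2 of those 15 genes. The 8 other complex I factors, 6 of complex III and 5 of complex V held 0 in each comparison by edgeR, with at most 2 of a list at an unadjusted p under 0.05. Of 77 mitochondrial ribosomal protein genes, 66 lay above 0 in C59A against WT, with a median of 0.20, and 1 was called, Mrpl47 (0.59 ± 0.12, adjusted p 0.0175). At an unadjusted p under 0.05 there were 20 of 77, beside 21% of all genes. Libraries were separated for 19 with C59A higher and 1 with C59A lower, beside 12.6% and 12% of all genes. WT replicate 1 was the lowest library in this list, and the count above 0 without it was not taken. Mrpl47 shares exon bases with the member Ndufb5 on the opposite strand, so reads on the shared bases, 12.3% of the exon bases of Ndufb5, cannot be told apart. Of 17 regulators of mitochondrial biogenesis, among them Ppargc1a, Nrf1, Gabpa, Esrra and Tfam, edgeR called 0 in each comparison, with 2 at an unadjusted p under 0.05 in C59A against WT, 3 in C59S against WT and 3 in C59A against C59S, beside 21%, 18.1% and 22.9% of all genes. Of 18 genes of the tricarboxylic acid cycle it called 0 in each, with 1, 0 and 2 at an unadjusted p under 0.05 in the same order of comparisons, below the shares of all genes.

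**Figure D4:**
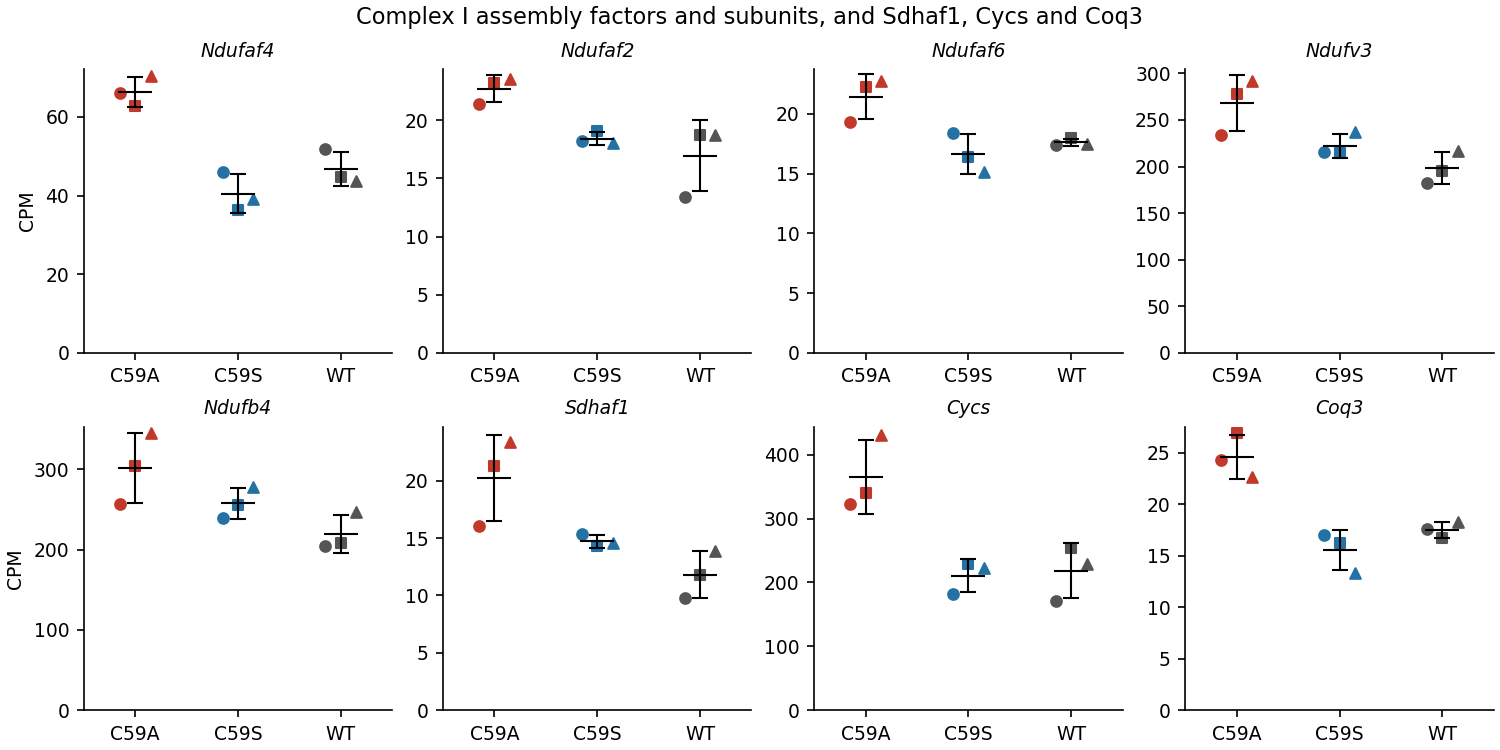
CPM of complex I assembly factors and subunits and of Sdhaf1, Cycs and Coq3 in C59A, C59S and WT kidneys, on axes that start at 0. Symbols are replicates, and bars show mean ± SD (n = 3). The C59A libraries of Ndufaf4, from 62.8 to 70.4 CPM, lie above all C59S and WT libraries.

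Complexes II, III and V held 0 called members in any comparison by edgeR, and at an unadjusted p under 0.05 they also held 0. Sdha, the flavoprotein subunit that oxidizes succinate, had 254, 210 and 282 CPM in C59A, 196, 303 and 223 CPM in C59S, and 219, 391 and 338 CPM in WT kidneys. Its groups overlapped, with log2 fold changes of -0.35 ± 0.23 in C59A and -0.39 ± 0.23 in C59S against WT (adjusted p 0.421 and 0.386). Sdhb, the iron-sulphur subunit, had 303, 375 and 395 CPM in C59A, 344, 371 and 372 CPM in C59S, and 288, 343 and 342 CPM in WT kidneys, and its C59S libraries lay just above the WT libraries. Sdhc, a membrane anchor, was at 0.18 ± 0.17 in C59A and 0.16 ± 0.17 in C59S against WT, and Sdhd, the other anchor, at -0.09 ± 0.19 in C59A and -0.18 ± 0.19 in C59S against WT, with overlapping libraries throughout. Uqcrfs1, the Rieske iron-sulphur protein of complex III, had the highest value of that complex in C59A against WT, 0.26 ± 0.15 with an adjusted p of 0.363. Uqcrc2, a core protein, had the lowest, -0.12 ± 0.23 with an adjusted p of 0.828, and its sign turned without WT replicate 2. Uqcr11 had the highest complex III value in C59S against WT, 0.26 ± 0.15 with an adjusted p of 0.393. In complex V the extremes in C59A against WT were Atp5l, a membrane subunit, at 0.20 ± 0.15 (adjusted p 0.491) and Atp5g3, a c-ring gene, at -0.15 ± 0.21 (adjusted p 0.742). Atp5b, the catalytic beta subunit, had 1051, 1033 and 1169 CPM in C59A, 884, 1037 and 873 CPM in C59S, and 823, 1243 and 1169 CPM in WT kidneys. Atp5e, the epsilon subunit, had 449, 545 and 528 CPM in C59A and 593, 619 and 613 CPM in C59S kidneys, which did not overlap, with -0.26 ± 0.16 in C59A against C59S and an adjusted p of 0.355.

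The widest ranges lay in complex IV, among isoforms known from other tissues. The 12 genes counted as general subunits included Cox7a2l by name only. They had medians of 0.07 in C59A against WT, 0.02 in C59S against WT and 0.06 in C59A against C59S. By edgeR 0 of them were called in each, with 0 at an unadjusted p under 0.05. The 6 tested tissue isoforms had medians of -0.19, 0.47 and -0.66 in the same order of comparisons, also with 0 called. At an unadjusted p under 0.05 there were 2 of 6 in C59A against WT, 2 of 6 in C59S against WT and 4 of 6 in C59A against C59S, beside 21%, 18.1% and 22.9% of all genes. Cox8b, a muscle and brown fat isoform, had 7, 0 and 6 reads in C59A (0.42, 0 and 0.29 CPM), 175, 153 and 448 reads in C59S (6.52, 6.89 and 30.2 CPM), and 20, 143 and 13 reads in WT kidneys (0.84, 7.18 and 0.62 CPM). The library with 0 reads allows up to 0.17 CPM, at 3 reads, by counting error. Every C59A library lay below every other library, and 1 WT library lay within the C59S range. The log2 fold change was -5.90 ± 1.43 in C59A against C59S, with an adjusted p of 0.059 in edgeR, and between 4.13e-04 and 0.194 over the alternatives, 6 of 24 of which called it. In proportion to the general isoform, Cox8b made up at most 0.09% of Cox8a plus Cox8b in C59A, 1.36% to 5.95% in C59S and 0.12% to 1.57% in WT kidneys.

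Markers of fat differed between these libraries. Ucp1, Cidea and Elovl3, which mark brown adipocytes, summed to 0.48, 0.23 and 0.38 CPM in C59A, 0.22, 6.17 and 55.7 CPM in C59S, and 0.50, 0.20 and 0.14 CPM in WT kidneys, with Elovl3 at 0 in 6 of the 9 libraries. The 5 white adipocyte markers summed to 43.2, 1.19 and 131 CPM in C59A, 3.17, 273 and 598 CPM in C59S, and 0.59, 0.50 and 0.81 CPM in WT kidneys. C59S replicate 3 was highest in both lists and in Cox8b, whereas C59S replicate 1 and WT replicate 2 held Cox8b at 6.52 and 7.18 CPM with brown adipocyte markers at 0.22 and 0.20 CPM. The part of fat in the Cox8b values was not tested.

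Ndufa4l2, a paralog of Ndufa4 known to respond to hypoxia, had 6.69, 6.00 and 8.67 CPM in C59A, 11.6, 11.2 and 15.1 CPM in C59S, and 7.62, 5.78 and 10.1 CPM in WT kidneys. The C59S libraries lay above all others. The log2 fold change was -0.82 ± 0.23 in C59A against C59S (adjusted p 0.0611) and 0.68 ± 0.23 in C59S against WT (adjusted p 0.179) in edgeR, and 7 of 24 alternatives called it in C59A against C59S. The 4 endothelial markers summed to 222, 242 and 214 CPM in C59A, 337, 371 and 517 CPM in C59S, and 217, 134 and 306 CPM in WT kidneys, with Pecam1 and Cdh5 called lower in C59A against C59S (adjusted p 0.0397 and 0.0478). Their median in C59A against C59S was -0.89, and some other marker lists were lower too. Podocyte markers had a median of -0.82 with 1 of 4 called lower, and intercalated cell markers -0.62 with 1 of 5. Distal convoluted tubule markers had -0.37 with 1 of 3 called lower, and proximal tubule markers 0.03 with 1 of 6 called higher. The part of any of these cell types in the Ndufa4l2 values was not tested.

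The remaining isoforms overlapped more. Cox6a2, known from heart and skeletal muscle, had 1.63, 0.68 and 1.62 CPM in C59A, 1.49, 2.52 and 4.58 CPM in C59S, and 1.68, 3.32 and 3.48 CPM in WT kidneys, a log2 fold change of -1.10 ± 0.48 in C59A against WT (adjusted p 0.214). Its C59A libraries lay just below the WT libraries and overlapped with C59S, and the other 5 striated muscle markers summed to 3.44, 1.58 and 3.81 CPM in C59A, 1.86, 3.20 and 3.77 CPM in C59S, and 2.02, 1.81 and 2.71 CPM in WT kidneys. Cox7a1, a heart and muscle isoform, had 15.5, 29.1 and 21.8 CPM in C59A, 31.7, 25.0 and 36.9 CPM in C59S, and 24.2, 26.1 and 28.1 CPM in WT kidneys. Cox4i2, an isoform known from lung, had 2.53, 3.96 and 2.81 CPM in C59A, 3.95, 2.61 and 5.12 CPM in C59S, and 2.90, 1.76 and 2.43 CPM in WT kidneys. Cox6b2, known from testis, had 35.0, 21.7 and 27.1 CPM in C59A, 20.0, 25.5 and 18.4 CPM in C59S, and 33.8, 20.8 and 35.3 CPM in WT kidneys. None of these 4 genes was called in any comparison by edgeR.

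**Figure D5:**
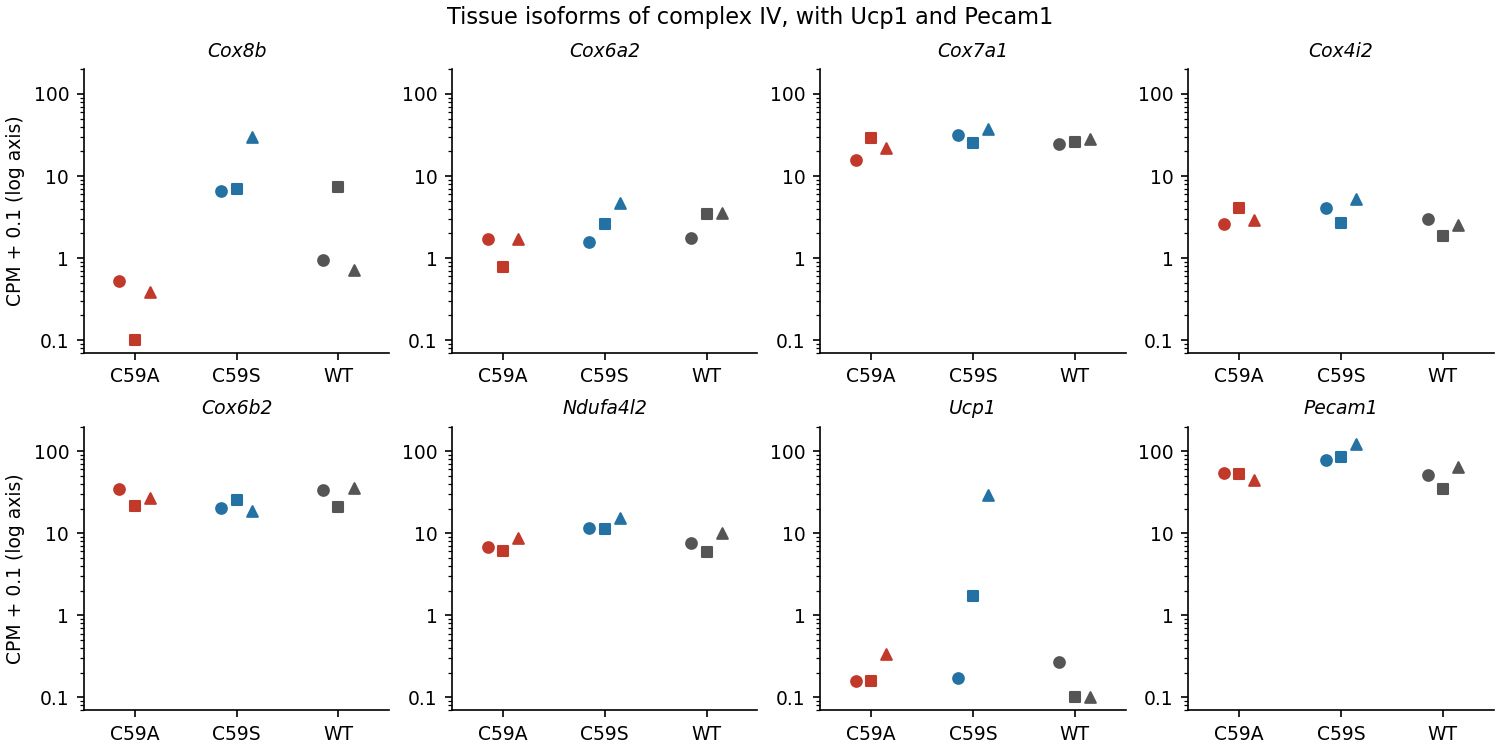
CPM plus 0.1 on a log axis for the 6 tested tissue isoforms of complex IV and for Ucp1 and Pecam1, markers of brown adipocytes and endothelium, in C59A, C59S and WT kidneys. Symbols are replicates. Cox8b lies at or below 0.42 CPM in C59A and reaches 30.2 CPM in C59S replicate 3, the library of highest Ucp1.

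Spread between replicates was lower for the members than for all tested genes, which were not matched to the members on level. The difference is thus not shown to be particular to the members. The median within-group SD on the log2 CPM scale was 0.18 over the 91 members and 0.25 over all tested genes, and 0.17 in complex I, 0.25 in complex II, 0.17 in complex III, 0.24 in complex IV and 0.18 in complex V. Cox5a, a general complex IV subunit, was among the more variable, at 57.9, 47.7 and 55.9 CPM in C59A, 40.6, 77.7 and 39.0 CPM in C59S, and 36.9, 82.9 and 69.4 CPM in WT kidneys.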

How the data were processed

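RNA was measured in 9 kidney libraries, 3 each of C59A, C59S and WT. The authors deposited raw counts per gene and FPKM values for the same libraries. Per the submitters' processing notes, CASAVA 1.8, fastp, HISAT2 2.0.5, featureCounts 1.5.0-p3 and DESeq2 1.20.0 were named, with build GRCm38; parameters and strand setting are not given in the sources used here. Every deposited FPKM of a gene with at least 50 counts could be rebuilt, to within 0.1%, from its count, its length and a single factor for that library.

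Counts were fitted for all 9 libraries at once with edgeR 4.0.16 (R 4.3.3), TMM factors, filterByExpr and the robust quasi-likelihood test, and p-values were adjusted over 17114 genes by Benjamini-Hochberg. CPM were computed with TMM-scaled library sizes. Errors of fold changes are SE and all other errors are SD. DESeq2 1.42.0, limma 3.58.1, voom, other scalings and filters, a replicate block and leaving out each library were alternatives. The fit was tested on simulated data: fold changes and null p-values were recovered, the share of false calls exceeded the nominal threshold in most draws, and many changed genes were missed, so a gene that was not called is not shown to be unchanged. Promoters came from RefSeq and exon overlaps from GENCODE M21.

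Members and gene lists were chosen with earlier results of these data known. Members are named where called, where extreme in a complex, as tissue isoforms, as complex II or core subunits, or as highest or lowest in level. Replicate numbers come from the titles, which do not say that they pair samples. The names of the data columns number the samples differently, and those numbers were not used for pairing. Deviations from group means of same-numbered libraries correlated at 0.319, 0.195 and 0.256 between C59S and WT. This met the bar for pairing (over 0.1 in every pair), but differently numbered libraries were not compared, so pairing is not shown. The values printed come from the fit without a block, and the block was an alternative. The correlations were 0.015, -0.095 and 0.049 between C59A and WT, and -0.085, -0.288 and 0.050 between C59A and C59S. No 2 libraries of the same group agreed within sampling noise; libraries of different groups were not compared in this way.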

Additional observations from a re-analysis of the deposited data

Results flagged for a closer look

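Atp5l2-ps, a processed pseudogene that the choice of protein-coding genes left out, averaged 1.41 CPM in C59S kidneys, with 1.38, 1.17 and 1.68 CPM, above the WT libraries, which had 0.80, 0.80 and 1.14 CPM, while C59A libraries had 0.60, 1.698 and 1.10 CPM. It was flagged because its C59S libraries lay above its WT libraries, where 11.2% of all tested genes were separated with C59S higher. No test result is given for it here. It had 210 reads over all 9 libraries, and its reads may be shared with its parent gene.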

How the results depend on the processing

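The count of members called in C59A against WT was 1, and it was 3 with DESeq2 (Ndufaf4, Ndufb4 and Ndufv3). It was 0 with library totals alone, with the mitochondrial share as a covariate, with limma on log2(FPKM + 1) without a filter, and, in an alternative chosen after seeing the data, with only the 2 groups and the replicate block. Leaving out 1 library gave 0 to 1. In C59A against C59S the count was 1, and it was 3 with DESeq2 and with only the 2 groups compared, and 2 without a filter, with voom, with the replicate block, with limma on log2(FPKM + 1) and log2(FPKM + 0.1) after the filter, and with the replicate block on the 2 groups. Leaving out 1 library gave 1 to 3. In C59S against WT every alternative gave 0 members, the replicate block included. The shares of all genes called under the alternatives are not given here, so these counts are not set against them. The median over the members moved by more than the spread between replicates with library totals alone, to -0.14 in C59A against WT and -0.14 in C59S against WT. Signs of genes that were not called turned under some settings. With library totals, Atp5e was -0.021 and Sdhc -0.043 in C59S against WT, and Atp5l was -0.039 and Sdhc -0.060 in C59A against WT. With the mitochondrial share as a covariate, Atp5g3 was 0.0094 and Cox6b2 0.079 in C59A against WT, and Cox7a1 was -0.12 in C59S against WT. With voom, Cox6b2 was 0.066 in C59A against WT. Leaving out 1 library gave ranges of -0.31 to 0.050 for Cox6b2, -0.31 to 0.092 for Ndufa4l2 and -0.28 to 0.19 for Uqcrc2 in C59A against WT, -0.34 to 0.14 for Uqcrc2 in C59S against WT, and -0.10 to 0.10 for Sdhb in C59A against C59S. The cause was not tested. Depth limits several tissue isoforms. Per library, Cox8b had 0 to 448 reads, Cox6a2 12 to 73, Cox4i2 35 to 106 and Ndufa4l2 106 to 310.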
